A study of Mus musculus with 4 samples.

Results

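Endothelial cells (ECs) of the brain differ along the vessel tree, and 35 transcripts that mark arterial, capillary or venous ECs were followed in sorted brain ECs with and without *Foxq1*. The members were taken by gene symbol from a list, chosen with earlier results of these data known, of 15 arterial, 10 venous and 10 capillary markers. Of these, 27 symbols were matched among the 12693 genes of the count table, 11 arterial, 7 venous and 9 capillary. The arterial *Gkn3*, *Alpl*, *Cytl1* and *Aqp1*, the venous *Lcn2*, *Ackr1* and *Lrg1* and the capillary *Cyp1b1* were not analysed here. Every gene in the table had at least 1 read in every sample, so a marker lost entirely from a library could not be followed.

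ECs carry a graded identity from artery through capillary to vein. In arteries, Notch signaling and ephrin-B2 are prominent and gap junction connexins couple neighbouring cells. In veins, the nuclear receptor COUP-TFII (*Nr2f2*) holds Notch signaling in check and EphB4, the receptor of ephrin-B2, is found. Capillaries of the brain make up most of its endothelium and carry many of the transporters of the blood-brain barrier.

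RNA was sequenced from cells of the embryonic day 18 cerebral cortex that had been sorted on CD31, a surface protein of ECs, and the study names Smart-seq2, a full-length cDNA protocol for small inputs. The sample labels give brain as the tissue, without the sort, and a library input of micrograms of total RNA, so which protocol made the libraries is not settled by these sources. There were 2 wild-type (WT) samples and 2 *Foxq1* conditional knockout (cKO) samples, FOXQ1fl/fl;Tie2-Cre, all on C57BL/6. The labels call the controls WT, the study's methods describe its controls as littermates without the Cre transgene, and whether the WT samples carried floxed alleles is not given in the sources used here. Tie2-Cre is known to act in blood cell lineages as well as in ECs. The number of embryos behind each sample and their sex are not given in the sources used here, so p-values measure the spread between these samples only, which may be technical. In such bulk samples, fewer cells of a type and less RNA per cell cannot be told apart.

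The libraries held between 15827166 and 21466436 reads on listed genes. *Foxq1* itself was at 353 and 297 normalized counts (reads divided by a size factor per sample) in WT and at 5.44 and 32.6 in cKO samples. Across genes, WT 1 stood somewhat apart, with Pearson correlations of log2 levels of 0.854 to 0.869 with the other libraries against 0.887 to 0.911 among those. The 12 endothelial markers include *Pecam1*, *Cdh5* and *Kdr*. They summed to 152354 and 140892 normalized counts in WT and 127934 and 141253 in cKO samples. Their median log2 fold change, cKO minus WT, was -0.15, with 9 negative and 3 positive estimates. The cKO samples lay below both WT samples for 5 of the 12 and above both for 2. Over all 12472 genes tested, 18% lay below and 18% above in this way. Of these 12 markers, 1 (*Flt1*, log2 fold change -0.48) was lower at an unadjusted p under 0.05 in limma. Of all genes tested, 3.05% were called lower. The 9 measured pericyte genes summed to 147639 to 162208 over the 4 samples, so mural RNA was abundant despite the CD31 sort, and none of these 9 passed an unadjusted p of 0.05 in limma. The smooth muscle genes *Acta2*, *Tagln*, *Myh11* and *Cnn1* were not analysed here. The 7 measured erythroid genes summed to 15770 to 20859, the 11 neuronal genes to 4823 to 6506 and the 2 neutrophil genes to 10.9 to 50.9, each range overlapping between groups.

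Promoter sequence is shown for 4 members because the deleted gene encodes a forkhead factor, a class that binds the core TGTTTA. In RefSeq (GRCm38.p6), 25 of the 27 members had a promoter entry. The 250 bases before the start held this core on either strand in 2 of these 25 (8%), counted per gene over any of its entries. Counted per promoter entry, a different measure, the share was 12.03% of all 32851 promoters. No other motif was searched. The study reports that FOXQ1 prefers GTTTC near the starts of *Adck1* and *Hap1*, and it mapped FOXQ1 binding in brain ECs. Neither that motif nor that binding was examined here. The 2 members were *Hmcn1* and *Slco1a4*, and both are capillary markers whose levels are given later in the text. *Itm2a*, the only member past an unadjusted p of 0.05, and *Gja5*, the arterial member with the lowest limma estimate, did not hold TGTTTA. Whether FOXQ1 binds at any of these members was not tested. Capitals mark the core, which in *Slco1a4* reads on the other strand.
*Hmcn1* (chr1:150993436-150993685, minus strand): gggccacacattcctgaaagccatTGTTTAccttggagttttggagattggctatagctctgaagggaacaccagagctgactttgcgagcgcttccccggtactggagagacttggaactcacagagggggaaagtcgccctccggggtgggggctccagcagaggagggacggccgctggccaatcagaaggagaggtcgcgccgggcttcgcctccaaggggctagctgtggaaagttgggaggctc
*Slco1a4* (chr6:141856221-141856470, minus strand): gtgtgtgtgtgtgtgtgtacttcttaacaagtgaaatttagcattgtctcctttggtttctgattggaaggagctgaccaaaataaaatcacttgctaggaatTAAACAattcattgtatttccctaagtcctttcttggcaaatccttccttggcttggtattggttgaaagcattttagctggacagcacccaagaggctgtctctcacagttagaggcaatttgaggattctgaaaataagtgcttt
*Itm2a* (chrX:107403361-107403610, minus strand): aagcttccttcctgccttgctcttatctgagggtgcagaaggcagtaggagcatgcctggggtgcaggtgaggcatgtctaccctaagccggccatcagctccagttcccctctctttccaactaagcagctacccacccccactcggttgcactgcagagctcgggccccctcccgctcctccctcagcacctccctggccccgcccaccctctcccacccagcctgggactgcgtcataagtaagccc
*Gja5* (chr3:97032152-97032401, plus strand): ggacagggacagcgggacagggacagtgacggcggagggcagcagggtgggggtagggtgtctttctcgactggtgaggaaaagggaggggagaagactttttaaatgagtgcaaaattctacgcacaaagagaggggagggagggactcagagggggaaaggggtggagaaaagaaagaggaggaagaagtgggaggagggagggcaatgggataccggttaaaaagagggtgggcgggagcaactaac

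Differences between cKO and WT samples were estimated on log2 of the normalized count plus 1 and tested with limma over 12472 genes. The comparison asks how far transcripts of each vessel zone differed in ECs without FOXQ1. The added 1 shrinks the estimates of low genes, while averaging log2 values lets 1 low library enlarge them. The estimate was -3.04 in limma and -2.11 in DESeq2 for *Gja5*, and -1.31 and -1.04 for *Mgp*. For *Icosl* it was smaller in limma (-2.22) than in DESeq2 (-2.37). After Benjamini-Hochberg adjustment in limma, 0 of the 27 members had an adjusted p under 0.05, as did 0% of all genes, and every member had an adjusted p of at least 0.857. At an unadjusted p under 0.05, 1 of the 27 members differed, against 5.22% of all genes tested. That member, *Itm2a*, was higher in cKO samples, and 2.17% of all genes were called higher and 3.05% lower. On recovered reads, DESeq2 gave 1 member (*Gja5*) at an unadjusted p under 0.05, against 6.49% of all genes, and edgeR gave 1 (*Itm2a*), against 4.98%. Neither tool called a member at an adjusted p under 0.05, with 0.498% of all genes called by DESeq2 and 0% by edgeR.

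The count of members rested in part on single libraries, and was 3 without WT 1 and 2 without cKO 2. The median log2 fold change of the 27 was -0.02, beside 0.01 for all genes tested, and the median size of the difference was 0.30 beside 0.37. The cKO samples lay above both WT samples for 5 of the 27 members and below both for 8. Among all genes tested, the groups did not overlap upward for 18% and downward for 18%.

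**Figure D1:**
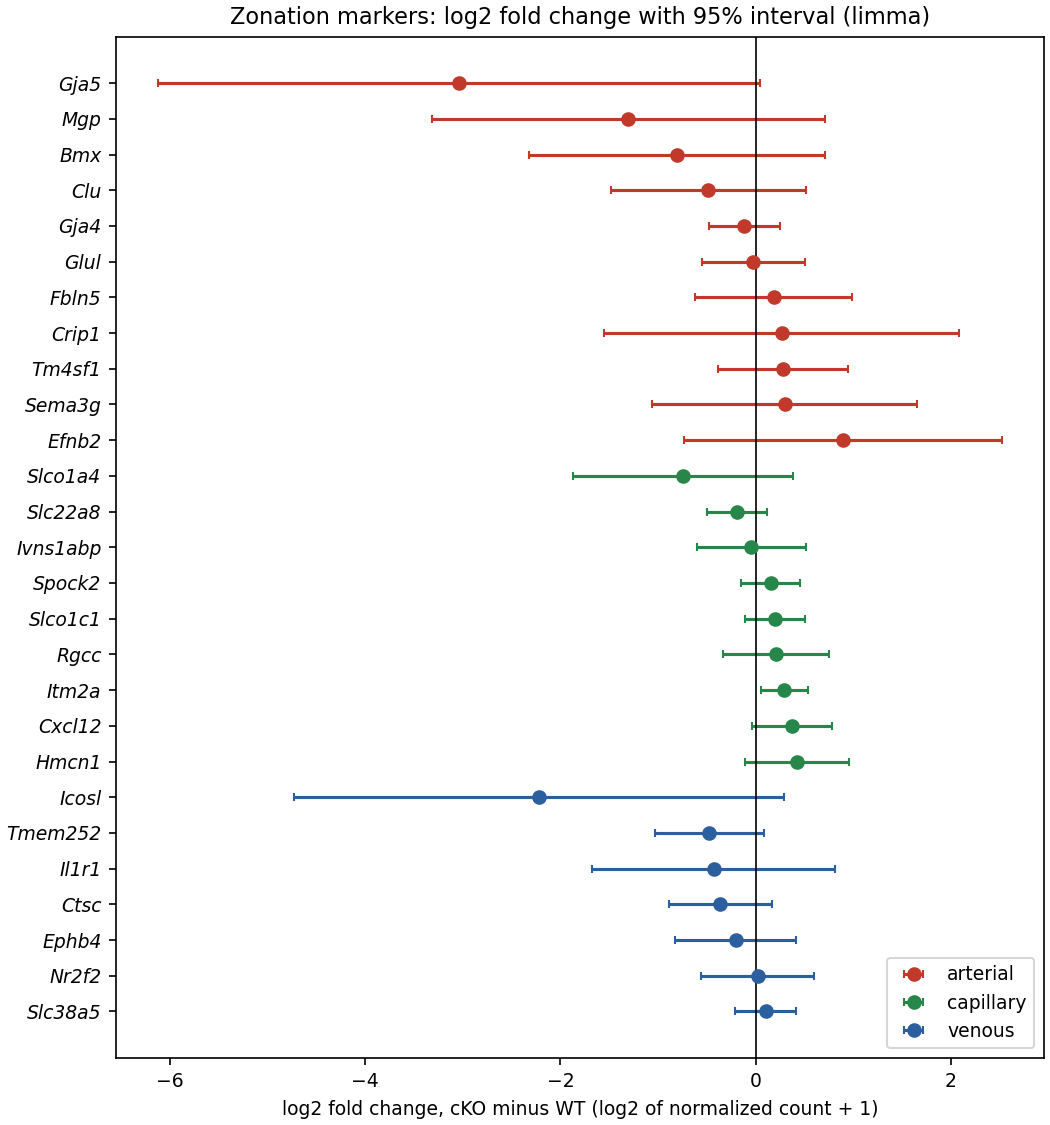
Log2 fold change of each of the 27 markers, cKO minus WT, on the horizontal axis, with points for the limma estimate and bars for its 95% interval, coloured by zone. The interval of *Itm2a* alone lies clear of 0 (0.05 to 0.54), the interval of the capillary *Slco1a4* (-1.87 to 0.38) is wider than those of the other capillary genes, and the intervals of *Gja5*, *Icosl*, *Mgp*, *Crip1* and *Efnb2* span several log2 units.

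Capillary markers had the highest mean level and the lowest median standard error of the 3 zones. Per kb of exon, WT levels were highest for *Itm2a* (45999 normalized counts per kb), the venous transporter *Slc38a5* (9992), *Spock2* (9785), *Slco1c1* (7128) and *Slc22a8* (5894). The lowest WT levels per kb belonged to the arterial *Efnb2* (17.4) and the venous *Icosl* (19.2). Standard errors of the log2 fold changes had medians of 0.17 for capillary, 0.24 for venous and 0.56 for arterial members, against 0.50 for all genes.

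**Figure D2:**
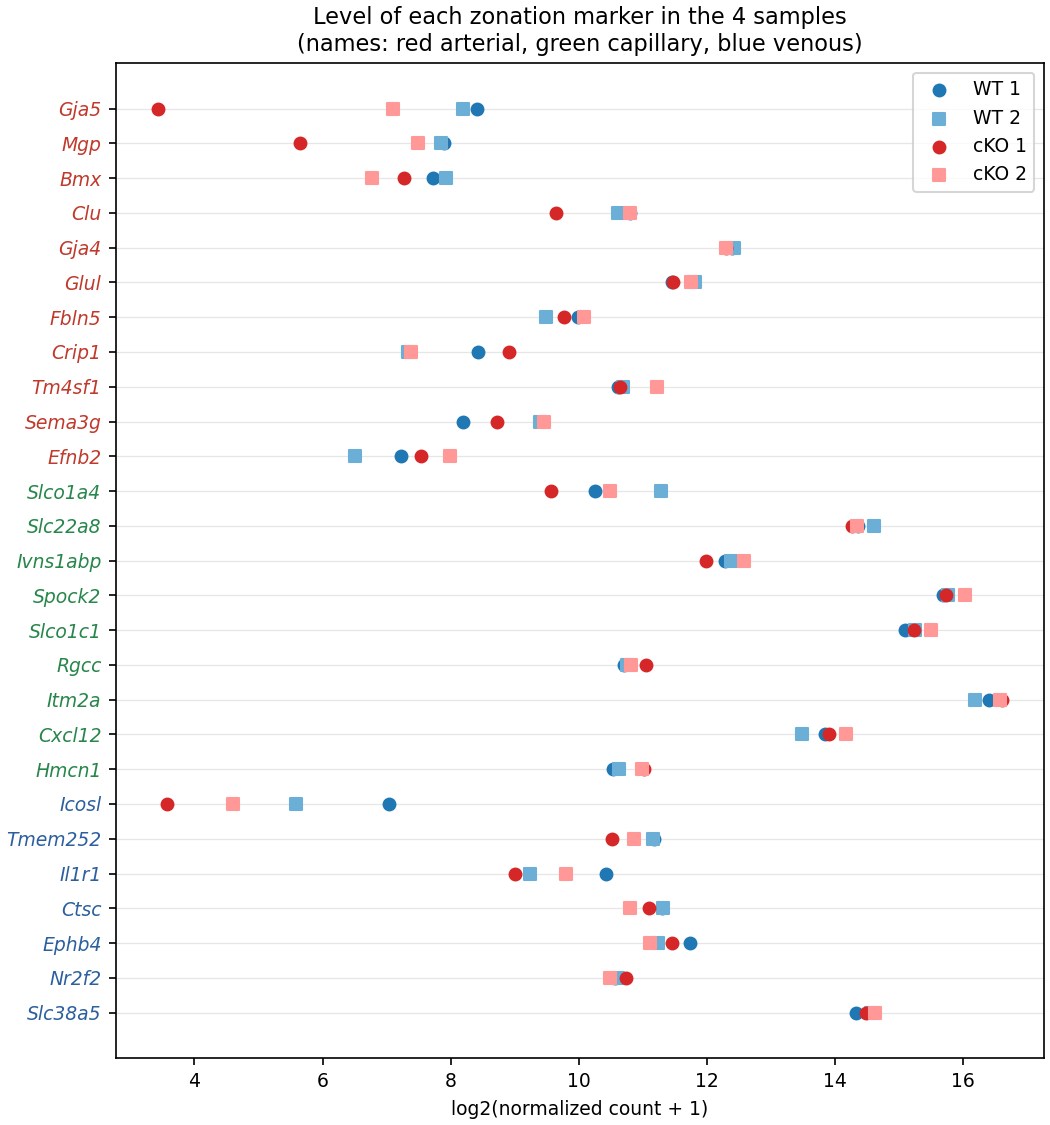
Level of each marker in the 4 samples as log2 of the normalized count plus 1, with circles for replicate 1, squares for replicate 2, blue for WT and red for cKO. Points of the abundant capillary genes lie close together, while *Gja5*, *Mgp* and *Icosl* are far lower in cKO 1 than in WT samples.

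Capillary members were, by their median, slightly higher in cKO samples (median log2 fold change 0.20, n = 9 genes). This median was 0.12 without WT 1 and 0.065 without cKO 2, and ran up to 0.28 without cKO 1. Of the 9, 6 had a positive and 3 a negative estimate. The cKO samples lay above both WT samples for 4 (*Itm2a*, *Cxcl12*, *Hmcn1* and *Rgcc*) and below both for 1 (*Slc22a8*). Over all genes tested, 18% lay above and 18% below in this way.

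*Itm2a* encodes an integral membrane protein of the BRICHOS family that is abundant in brain ECs. It lies on chromosome X at 107397099 to 107403376 (minus strand, GRCm38) and had 86205 and 74238 normalized counts in WT and 99147 and 97249 in cKO samples. The cKO samples lay close together and above both WT samples. The mean was 80222 ± 8462 (SD, n = 2) in WT and 98198 ± 1342 (SD, n = 2) in cKO samples, a 1.22-fold difference. On the log2 scale this was 0.30 (95% interval 0.05 to 0.54, SE 0.0996, unadjusted p = 0.0246 and adjusted p = 0.857 from limma). *Itm2a* had an unadjusted p of 0.356 in limma without a trend, 0.113 in limma without moderation and 0.0598 in DESeq2. It passed an unadjusted p of 0.05 in 9 of 12 alternatives and, of the 4 fits with a sample left out, in the 1 without WT 1. With WT 2, cKO 1 or cKO 2 left out, the limma p was 0.136, 0.0885 and 0.0684, and over all 4 such fits the log2 fold change ran from 0.19 to 0.40.

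*Hmcn1*, which encodes the extracellular matrix protein hemicentin-1, was at 1479 and 1580 normalized counts in WT and at 2075 and 2029 in cKO samples. Replicates lay within 1.07-fold of each other in either group, and the cKO mean was 1.34-fold the WT mean. Its log2 fold change of 0.42 (95% interval -0.11 to 0.95, unadjusted p = 0.0978 in limma) did not pass 0.05. *Hmcn1* is on chromosome 1 at 150562524 to 150993435 (minus strand, GRCm38), and 399 bp of its exons overlap the antisense gene *Gm20631*.

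*Cxcl12*, the chemokine ligand of CXCR4, had 14667.5 and 11503 normalized counts in WT and 15309 and 18472 in cKO samples. Both cKO samples were above both WT samples, with cKO 1 close to WT 1. Its log2 fold change was 0.37 (95% interval -0.04 to 0.79, unadjusted p = 0.0697 in limma). Without WT 1 it was 0.55 with an unadjusted p of 0.0205 in limma, and without WT 2 it was 0.20. *Cxcl12* is also made by fibroblasts. Of the 9 listed fibroblast markers, the 5 measured summed to 8941 and 10063 in WT and 9551 and 5800 in cKO samples. None of the 5 passed an unadjusted p of 0.05 in limma, and their part in the *Cxcl12* values was not tested. *Rgcc*, a regulator of the cell cycle found in capillary ECs, was at 1662 and 1725 in WT and at 2117 and 1806 in cKO samples (log2 fold change 0.21, unadjusted p = 0.389 in limma).

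The proteoglycan gene *Spock2* had 52634 and 55646 normalized counts in WT and 54094 and 66962 in cKO samples. Its groups overlapped, and the log2 fold change of 0.15 had a 95% interval of -0.15 to 0.46. It was 0.31 without cKO 1, with an unadjusted p of 0.0450 in limma, and -6.56e-04 without cKO 2. *Ivns1abp*, which encodes an actin-binding kelch protein, overlapped likewise, at 4997 and 5287 in WT and 4050 and 6137 in cKO samples.

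The organic anion carriers of the capillary list did not share a direction. *Slco1c1*, a carrier of thyroxine, was at 35029.5 and 38900 normalized counts in WT and 38615 and 46392 in cKO samples, and its groups overlapped. Its log2 fold change was 0.20 (95% interval -0.11 to 0.50). *Slco1a4*, a related carrier gene, lies at 141805440 to 141856199 of chromosome 6 (minus strand), and *Slco1c1* lies at 141524368 to 141570177 (plus strand, GRCm38). *Slco1a4* was at 1222 and 2487 in WT and at 757 and 1431 in cKO samples, and here too the groups overlapped, with the WT samples 2.04-fold apart. The estimate was -0.74 on the log2 scale (95% interval -1.87 to 0.38, unadjusted p = 0.158 in limma). It was -1.26 without WT 1, with an unadjusted p of 0.0258 in limma. Without WT 2 it was -0.23, with an unadjusted p of 0.630 in limma. How the counting treated reads that match more than 1 gene is not given in the sources used here. *Slc22a8*, the organic anion transporter OAT3, had 21075 and 25013 in WT and 19610 and 20662 in cKO samples, with both cKO samples below both WT samples and a log2 fold change of -0.19 (95% interval -0.50 to 0.12).

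**Figure D3:**
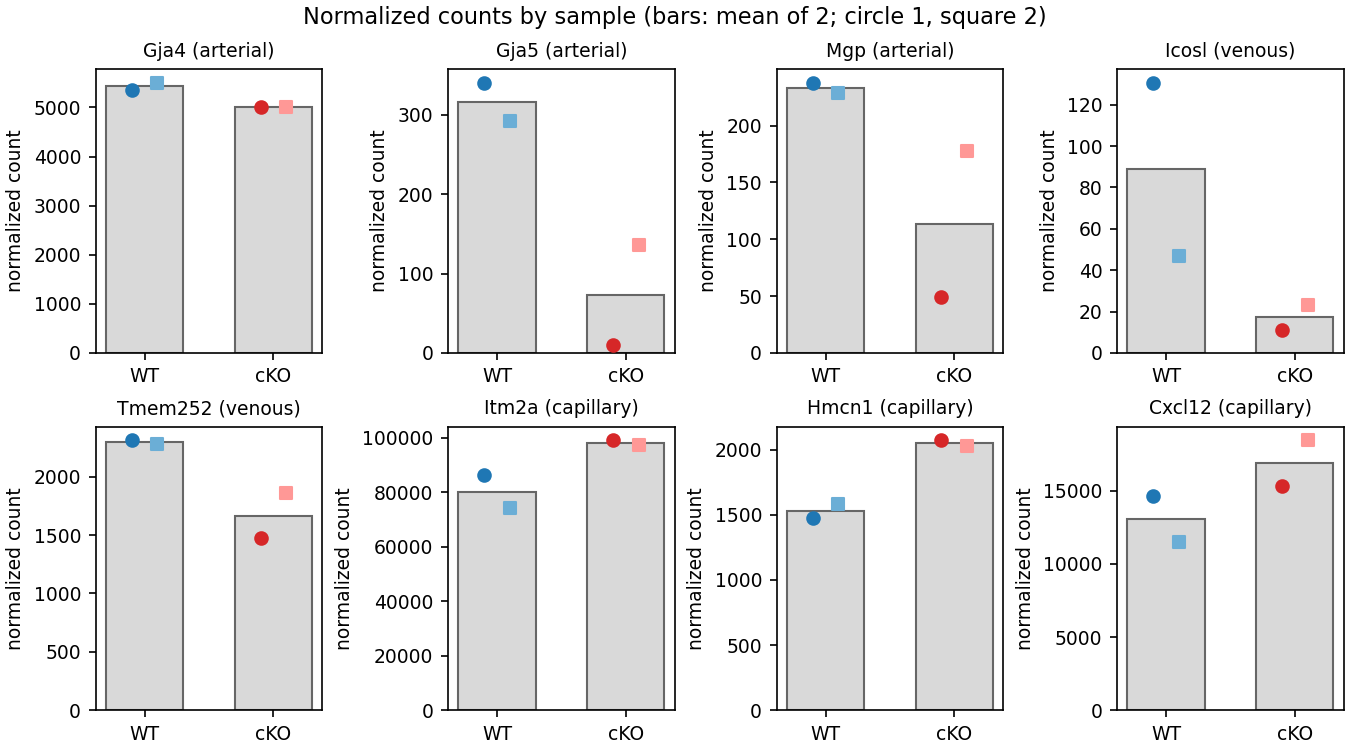
Normalized counts of 8 markers by sample, with bars for the group mean of 2 samples, circles for replicate 1 and squares for replicate 2. The arterial *Gja4* is nearly level between groups, *Gja5*, *Mgp* and *Icosl* are lower in cKO samples with widely spaced points, and the cKO samples of *Itm2a*, *Hmcn1* and *Cxcl12* lie above the WT samples.

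The 11 arterial members had a median log2 fold change of -0.02, which was 0.04 under quantile normalization and 0.09 under scaling by endothelial genes. With 1 sample left out it was -0.20 without WT 1, -0.12 without cKO 2, -0.10 without WT 2 and 0.096 without cKO 1. There were 5 positive and 6 negative estimates, with none past an unadjusted p of 0.05 in limma. The cKO samples lay below both WT samples for 4 (*Gja4*, *Gja5*, *Bmx* and *Mgp*) and above both for 1 (*Efnb2*). Over all genes tested, 18% lay below and 18% above in this way.

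The arterial connexins illustrate the range of precision. *Gja4* encodes connexin 37 and lies on chromosome 4 at 127311421 to 127314039 (minus strand, GRCm38). It was at 5362 and 5503 normalized counts in WT and at 5009 and 5001 in cKO samples, and these values came from 4601 to 6364 reads. Its cKO mean was 92.1% of the WT mean. Its log2 fold change of -0.12 had a 95% interval of -0.48 to 0.25, so a change of 2-fold in either direction lies outside it.

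*Gja5* encodes connexin 40 and lies on chromosome 3 at 96904693 to 97077416 (plus strand, GRCm38). It had 340 and 292 normalized counts in WT and 9.80 and 136 in cKO samples. Both cKO samples were below both WT samples, but they were 13.9-fold apart. The count in cKO 1 came from 9 reads, for which an exact 95% Poisson interval is 4.12 to 17.1 reads and covers counting error only. The mean went from 316 ± 34.2 (SD, n = 2) to 73.1 ± 89.5 (SD, n = 2). The estimate was -3.04 on the log2 scale (95% interval -6.12 to 0.04, SE 1.26, unadjusted p = 0.0524 in limma). Over 12 alternatives, the unadjusted p lay between 0.0339 and 0.240 and was under 0.05 in 5, DESeq2 included (log2 fold change -2.11, unadjusted p = 0.0439, adjusted p = 0.751). Without cKO 1 the log2 fold change was -1.20, and without cKO 2 it was -4.87 with an unadjusted p of 0.00555 in limma. An overlap of 165 bp with exons of *Gpr89* on the opposite strand covers 2.9% of the exon length of *Gja5*, and without strand the source of reads there cannot be told apart.

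*Mgp*, which encodes the calcification inhibitor matrix Gla protein, followed the same sample order. It was at 238 and 228 normalized counts in WT and at 49.0 and 178 in cKO samples, with a log2 fold change of -1.31 (95% interval -3.32 to 0.71, SE 0.82, unadjusted p = 0.164 in limma). Without cKO 1 the log2 fold change was -0.39. *Clu*, which encodes the secreted chaperone clusterin and is also an astroglial transcript, had 1777 and 1560 in WT and 797 and 1780 in cKO samples, so its groups overlapped and only cKO 1 was low. On the log2 scale the difference was -0.48, and without cKO 2 it was -1.06 with an unadjusted p of 0.0358 in limma. The 12 astroglial and neural progenitor markers summed to 33005 in cKO 1 and to between 32202 and 34584 in the other libraries. Of these 12 markers, 1 (*Gfap*) was lower at an unadjusted p under 0.05 in limma, against 3.05% of all genes tested. The part of these markers in the *Clu* values was not tested. *Bmx*, an arterial tyrosine kinase gene, was at 211 and 242 in WT and at 154 and 108 in cKO samples (log2 fold change -0.81, unadjusted p = 0.242 in limma).

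*Efnb2*, the arterial ligand of EphB4, was the arterial member with the highest estimate. It had 149 and 89.7 normalized counts in WT and 184 and 253 in cKO samples, and the groups did not overlap. An estimate of 0.89 on the log2 scale had a 95% interval of -0.73 to 2.52 and an unadjusted p of 0.228 in limma. *Ephb4*, its venous receptor, was at 3419 and 2405 in WT and at 2799 and 2217 in cKO samples, with a log2 fold change of -0.20 (95% interval -0.82 to 0.42).

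The remaining arterial members overlapped between groups. *Sema3g*, a secreted semaphorin of arterial ECs, ran from 292 to 670 within WT and from 419 to 704 within cKO samples. *Crip1*, a LIM domain protein gene, ran from 160 to 341 within WT and from 165 to 479 within cKO samples. *Tm4sf1*, a tetraspanin-like surface protein gene, was at 1570 and 1643 in WT and at 1592 and 2387 in cKO samples. *Fbln5*, an elastic fibre gene, was at 1009 and 717 in WT and at 868 and 1078 in cKO samples. *Glul*, the glutamine synthetase gene, was at 2815 and 3593 in WT and at 2846 and 3440 in cKO samples, and its 95% interval of -0.55 to 0.50 was centred near 0.

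The 7 venous members had a median log2 fold change of -0.36. Estimates were negative for 5 and positive for 2, and none passed an unadjusted p of 0.05 in limma. The cKO samples lay below both WT samples for 3 (*Ctsc*, *Tmem252* and *Icosl*) and above both for 0. Over all genes tested, 18% lay below and 18% above in this way. This median rested on WT 1, without which it was -0.014, beside -0.20 for the arterial members in the same fit.

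*Nr2f2*, the venous identity factor, lies on chromosome 7 at 70351944 to 70366735 (minus strand, GRCm38). It was at 1514 and 1568 normalized counts in WT and at 1698 and 1439 in cKO samples. Its log2 fold change was 0.02 with a 95% interval of -0.56 to 0.60. Exons of *B130024G19Rik* on the opposite strand overlap 7.5% of its exon length. *Slc38a5*, a glutamine transporter and the most abundant venous member per kb, was at 20592 and 24192 in WT and at 22838 and 25149 in cKO samples (log2 fold change 0.10, 95% interval -0.21 to 0.41). Differences of 2-fold lay outside the intervals of both genes.

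*Icosl*, which encodes the ligand of the T cell costimulator ICOS, had 131 and 46.9 normalized counts in WT and 10.9 and 23.4 in cKO samples. These came from 155 and 47 reads in WT and 10 and 23 reads in cKO samples. The groups did not overlap, while the WT samples were 2.79-fold and the cKO samples 2.15-fold apart. Its log2 fold change was -2.22 (95% interval -4.73 to 0.29, SE 1.03, unadjusted p = 0.0736 in limma), and it ran from -2.95 to -1.49 over fits that dropped 1 sample. The lowest of these, without WT 2, had an unadjusted p of 0.0434 in limma. *Icosl* is on chromosome 10 at 78069302 to 78083913 (plus strand, GRCm38).

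*Tmem252*, a transmembrane protein gene on chromosome 19 (24674008 to 24682233, plus strand), was at 2316 and 2282 in WT and at 1472 and 1862 in cKO samples. Its WT samples lay within 1.01-fold of each other, and the cKO mean was 72.5% of the WT mean. This gave a log2 fold change of -0.47 (95% interval -1.03 to 0.09, unadjusted p = 0.0838 in limma). *Ctsc*, which encodes the lysosomal protease cathepsin C, was at 2525 and 2550 in WT and at 2194 and 1776 in cKO samples (log2 fold change -0.36, unadjusted p = 0.143 in limma). *Ctsc* is also a transcript of microglia. The 15 microglia and macrophage markers summed to 10812 and 13591 in WT and to 8701 and 9630 in cKO samples, without overlap. The abundant *Csf1r*, *C1qa*, *C1qb* and *Cx3cr1* were at 55.8%, 64.0%, 75.7% and 81.0% of the WT mean. Of the 15, 7 had a negative and 8 a positive estimate, with a median log2 fold change of 0.06. The positive ones included genes of few reads, such as *Ptprc* (6 to 243 reads) and *C1qc* (36 to 206 reads). Of these 15 markers, 1 (*Csf1r*) was lower at an unadjusted p under 0.05 in limma, against 3.05% of all genes tested. The part of these markers in the *Ctsc* values was not tested. *Il1r1*, the interleukin-1 receptor gene, was at 1371 and 602 in WT and at 513 and 885 in cKO samples, and its groups overlapped.

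**Figure D4:**
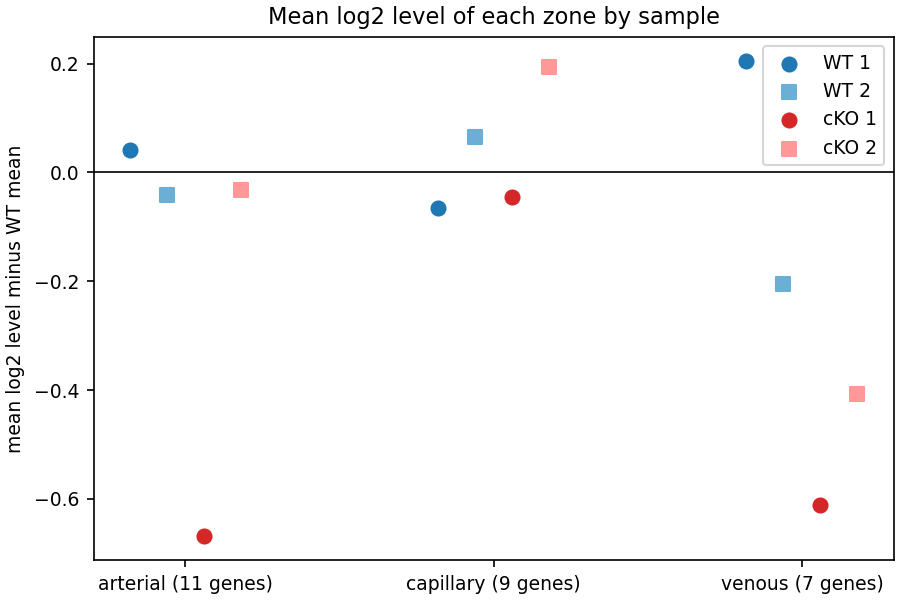
Mean log2 level of the 11 arterial, 9 capillary and 7 venous markers in each sample, shown as the difference from the WT mean of that zone, with circles for replicate 1 and squares for replicate 2. cKO 1 is lowest for arterial and venous markers, both cKO samples are below both WT samples for venous markers, and capillary means overlap.

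Averaged within a sample, the log2 levels of arterial members were 9.37 and 9.29 in WT and 8.66 and 9.30 in cKO samples. Venous members averaged 10.9 and 10.5 in WT and 10.1 and 10.3 in cKO samples, and capillary members 13.2 and 13.4 in WT and 13.3 and 13.5 in cKO samples. The arterial mean thus set cKO 1 apart from the other 3 samples, and the capillary means overlapped between groups. The venous mean minus the capillary mean was -2.30 and -2.84 in WT and -3.14 and -3.17 in cKO samples, without overlap. The arterial mean minus the capillary mean did not overlap either, at -3.86 and -4.08 in WT and -4.60 and -4.20 in cKO samples. The arterial mean minus the venous mean overlapped, at -1.56 and -1.24 in WT and -1.46 and -1.03 in cKO samples. These averages are descriptions and carry no test, and low genes such as *Gja5* and *Icosl* weigh in them as much as abundant ones.

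Between replicates, 5 of the 27 members differed by more than 2-fold between the WT samples (*Sema3g*, *Crip1*, *Il1r1*, *Icosl* and *Slco1a4*) and 5 between the cKO samples (*Gja5*, *Mgp*, *Clu*, *Crip1* and *Icosl*). The group means differed by more than 2-fold for 3 members, *Gja5*, *Mgp* and *Icosl*, and each of these 3 was also more than 2-fold apart within the cKO group. For a given gene, the exact permutation test (two-sided, 2 against 2 samples) has 0.333 as its smallest p.

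Other genes of arteriovenous identity were read from lists of 21 arterial and 10 venous genes, also chosen with earlier results of these data known. Of the arterial specification genes, 20 were tested, and 0 passed an unadjusted p of 0.05 in limma (0 in edgeR and 3 in DESeq2). The shares among all genes were 5.22% in limma, 4.98% in edgeR and 6.49% in DESeq2. The median log2 fold change of the 20 was -0.21, with 13 negative estimates. The cKO samples lay below both WT samples for 6 of the 20 and above both for 1, against 18% of all genes tested in each direction. From the venous list, *Vwf*, the von Willebrand factor gene of large vessels, fell from 20445 ± 3024 to 6256 ± 1214 normalized counts (SD, n = 2 each; log2 fold change -1.71, adjusted p = 0.857 in limma, 0.937 in edgeR and 1.39e-12 in DESeq2). With each sample left out in turn, its log2 fold change ran from -1.91 to -1.51.

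Of 12 further genes of the capillary barrier, 1 was higher and 2 were lower at an unadjusted p under 0.05 in limma. Among all genes tested, 2.17% were called higher and 3.05% lower. The list was chosen with earlier results of these data known, so its count is not a finding about barrier genes. *Car4*, a membrane-bound carbonic anhydrase of capillaries, rose from 2459 ± 1361 to 8318 ± 1714 normalized counts (SD, n = 2 each; log2 fold change 1.86). *Slc16a1*, the monocarboxylate transporter MCT1, fell from 43459 ± 1287 to 25980.4 ± 3165 (SD, n = 2 each; log2 fold change -0.75). *Mfsd2a*, the lysolipid carrier of barrier capillaries, was at 27454 ± 2388 in WT and 22042 ± 454 in cKO samples (SD, n = 2 each; log2 fold change -0.31). The adjusted p was 0.857 for all 3 in limma and 0.937 in edgeR. In DESeq2 the adjusted p was 1.77e-04 for *Car4*, 0.00317 for *Slc16a1* and 0.753 for *Mfsd2a*. The median over the 12 genes was -0.02.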

How the data were processed

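RNA-seq was examined for 2 WT and 2 *Foxq1* cKO samples, with group and replicate number taken from the sample titles. The authors deposited 1 table of normalized values per gene, a signal made by dividing the counted reads by 1 size factor per sample. In each sample, 100% of values came out as whole reads (tolerance 0.001 reads) once multiplied by that factor, and these recovered reads were kept. The submitters' processing notes name Bowtie2 2.2.3, TopHat2 2.0.12, HTSeq 0.6.0 and mm9. The strand setting is not given in the sources used here. The 1207361 lines were collapsed to 12693 symbols, 8 of which had 2 identifiers with identical values. Positions and exon lengths are from GENCODE M21 (GRCm38), in which all 27 members were found, and they are not coordinates of the deposited table. Depth ranged from 15827166 to 21466436 reads.

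limma 3.58.1 (R 4.3.3, eBayes with a trend) was applied to log2-transformed values (pseudocount 1) of the 12472 genes whose mean over the 4 samples reached 10, with Benjamini-Hochberg adjustment. All 27 matched members passed this filter. Alternative fits used DESeq2 1.42.0 and edgeR 4.0.16 on those reads. The limma step was tested on simulated data. Members and lists were chosen with earlier results of these data known. Members were named in full where an unadjusted p was under 0.05, a count test gave an adjusted p under 0.05, or groups did not overlap and the log2 fold change was at least 1 in size, and the others by their values. List genes outside the members were named at an unadjusted p under 0.05. A result of the venous specification list is not reported here, so no counts are given for that list.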

Additional observations from a re-analysis of the deposited data

How the results depend on the processing

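Which members passed an unadjusted p of 0.05 also depended on the fit. In limma without a trend the 1 member was *Icosl*, and without moderation the 2 were *Gja4* and *Hmcn1*, so *Itm2a* passed in neither. The count of members at an unadjusted p under 0.05, 1 as reported, was 2 with a pseudocount of 5 or a minimum mean of 50. It was also 2 under scaling by endothelial genes or no moderation, and 3 under quantile normalization. It ran from 1 to 3 with each sample left out (3 without WT 1 and 2 without cKO 2), where the lone sample is assumed to vary like the other group. All genes at an adjusted p under 0.05 numbered 62 in DESeq2 against 0 in limma. At an unadjusted p under 0.05 there were 651 in limma, from 592 to 824 over the alternatives with all samples and from 276 (without cKO 1) to 1569 (without WT 2) with 1 left out. Scaling by endothelial genes moved the median log2 fold change of all genes to 0.12 and the unadjusted calls from 271 higher and 380 lower to 371 and 238. Beside that median, the zone medians were then 0.09 (arterial), -0.25 (venous) and 0.31 (capillary). Under that scaling and under quantile normalization, the log2 fold changes of *Glul* (0.091 and 0.042) and *Ivns1abp* (0.070 and 0.052) turned positive. The causes were not tested.

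The replicate number as a block gave 3 members, *Itm2a*, *Gja5* and *Slco1a4*, at an unadjusted p under 0.05. Same-numbered samples hardly deviated together (correlation 0.032 across genes), so the numbers were not used to pair samples.

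With each sample left out, the venous median ran from -0.46 to -0.014. Log2 fold changes that changed sign ran from -0.30 to 0.90 for *Sema3g*, -0.098 to 0.14 for *Nr2f2*, -0.46 to 0.051 for *Ephb4*, -0.014 to 0.22 for *Slc38a5*, -1.02 to 0.16 for *Il1r1*, -0.50 to 1.03 for *Crip1*, -0.062 to 0.43 for *Fbln5*, -0.20 to 0.15 for *Glul*, -1.06 to 0.096 for *Clu*, -0.34 to 0.26 for *Ivns1abp*, -0.013 to 0.57 for *Tm4sf1* and -6.56e-04 to 0.31 for *Spock2*. With 2 samples in each group, low markers such as *Gja5* and *Icosl* are limited by the spread between samples and by reads.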
